A study of Homo sapiens with 4 samples.

Results

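The SR proteins and the heterogeneous nuclear ribonucleoproteins (hnRNPs) were examined in HEK293 cells, an established human embryonic kidney line, after depletion of CNOT4, an E3 ligase named for its link to CCR4-NOT, the main mRNA deadenylase. Members were taken by symbol: SRSF followed by a number, or any symbol beginning with HNRNP, without symbols that carry a pseudogene ending. This gave 34 of 20457 listed symbols, of which 12 were SR genes, 20 were hnRNP protein genes and 2 were the non-protein entries *HNRNPU-AS1* and *HNRNPUL2-BSCL2*. The 4 pseudogene symbols of this kind were left out. *HNRPDL* and *HNRPLL*, listed under older names of *HNRNPDL* and *HNRNPLL*, lay outside the rule and are described with the other splicing regulators.

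The siControl group had 2 libraries of wild-type cells given a negative control siRNA, and the siCNOT4 group had 2 libraries of cells given an siRNA against *CNOT4*. Both siRNAs were used at 10 nM for 72 h, and all 4 libraries were poly(A)-selected and stranded. The study asked whether CNOT4 takes part in how codon choice sets mRNA levels. Samples are numbered 1 and 2 in each group, and nothing says that they came from separate cultures, so p-values measure only the spread between these samples. Values are TPM, which is read density per transcript length scaled to 1000000 per library, so levels of different genes can be compared.

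SR proteins carry RNA recognition motifs and a tail rich in arginine and serine, and they bind exonic enhancers and recruit the spliceosome. Their tail is phosphorylated by SRPK and CLK kinases, which governs entry into the nucleus and release from nuclear speckles. The hnRNPs coat nascent transcripts through RNA recognition motifs, KH domains or glycine-rich repeats and often oppose SR proteins at the same exons. Many genes of both families limit their own level by including a poison exon that sends the mRNA to nonsense-mediated decay. Gene-level TPM does not separate such transcripts from productive ones.

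*CNOT4* itself had 6.43 and 4.73 TPM in siControl and 3.38 and 3.81 TPM in siCNOT4. Both knockdown libraries lay below both controls, and the log2 fold change of TPM + 1 was -0.51 (SE 0.26, limma adjusted p = 0.184). *CNOT4* was called lower, that is, with an adjusted p under 0.05, after libraries were scaled by a trimmed mean of M values (TMM; -0.93, limma adjusted p = 0.0361), after quantile normalization (-1.15, 0.0252), with the length and GC trend removed (-1.30, 0.0129) and without siControl replicate 2 (-0.70, 0.00975). Over all its alternatives the adjusted p ran from 0.00975 to 0.743. Of 6 genes fixed as HEK293 markers, 5 had a mean of at least 1 TPM, and *NEFM* lay below that in every library. Of 8 markers of other cell types, 7 had a mean under 1 TPM. The muscle gene *DES* had 0.927 and 1.03 TPM in siControl and 3.46 and 3.54 TPM in siCNOT4 (limma adjusted p = 0.0270), and its part in the results was not tested. Low-value steps placed the depth at about 32.5 to 34.5 in units of 1e6 reads. The median log2 fold change of all 14208 features with a mean of at least 1 TPM was 0.50 as deposited and 0.03 after TMM scaling. The siControl replicates differed by a median of 0.38 over these features, replicate 1 being higher, and the siCNOT4 replicates by -0.03. In such bulk libraries, a change in the share of cells with a transcript and a change in its amount per cell cannot be told apart.

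Of the 32 protein genes, 31 reached a mean of 1 TPM and were tested. The exception was *HNRNPCL1*, an intronless relative of *HNRNPC*, listed at 0 in 3 libraries and at 0.148 TPM in siCNOT4 replicate 2. One tested gene was called, that is, had a limma adjusted p under 0.05: *HNRNPH2* rose in siCNOT4. No SR gene was called in either direction (0 of 12 by limma), and 3 of them, *SRSF5*, *SRSF10* and *SRSF12*, had an unadjusted p under 0.05. Among all tested features, 11.3% were called higher and 1.30% lower. The hnRNP count was 1 of 19 higher and 0 lower, and 5 of 19 had an unadjusted p under 0.05, namely *HNRNPH2*, *HNRNPF*, *HNRNPU* and *HNRNPA2B1* with positive values and *HNRNPA1* with a negative one. Over all tested features 42.0% had an unadjusted p under 0.05, and 38.0% had one with a positive value, so the counts of both families lay below these shares.

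*HNRNPH2* encodes a member of the F/H group, whose proteins bind runs of guanines near splice sites and polyadenylation sites. It had 99.5 and 81.0 TPM in siControl and 223 and 226 TPM in siCNOT4, or 90.2 ± 13.1 against 224 ± 2.38 (mean ± SD, n = 2 each). Both siCNOT4 libraries exceeded both controls, and the groups were separated by far more than the replicates. The ratio of the means was 2.49 and the log2 fold change 1.31 (SE 0.17, limma adjusted p = 0.0227). After TMM scaling the log2 fold change was 0.79 (limma adjusted p = 0.0430), and leaving out 1 library at a time gave 1.17 to 1.46. The readthrough entry *RPL36A-HNRNPH2*, no member by the rule, had 96.0 and 80.4 TPM in siControl and 203 and 206 TPM in siCNOT4. Its ratio to *HNRNPH2* was 0.965 and 0.992 in siControl and 0.912 in both siCNOT4 libraries. These entries may share reads, so their rises cannot be taken as separate. The upstream ribosomal protein gene *RPL36A* had 14.7 and 13.9 TPM in siControl and 10.0 and 10.5 TPM in siCNOT4 (log2 fold change -0.44, limma adjusted p = 0.226). The counting options are not given, so how any reads shared with the readthrough entry entered this value is not known.

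The stretch before the RefSeq start of *HNRNPH2* is shown because it belongs to the 1 gene that was called. It covers the 100 bases upstream of the start on the plus strand, chrX:101408122-101408221 in GRCh38.p14, and capitals mark the palindrome CACGTG, the core of the E-box that basic helix-loop-helix factors bind. The processing notes name hg19, so these positions were not joined to the TPM values.
HNRNPH2: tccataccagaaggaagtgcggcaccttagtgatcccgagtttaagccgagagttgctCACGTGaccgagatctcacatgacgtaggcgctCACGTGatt
The palindrome occurred 2 times, beginning 42 and 9 bases before the start. It was found in 7.26% of all 35116 RefSeq windows from 250 bases before to 50 after a start, and in 9.17% of those of tested features. Among 30 member genes with a window, 6 held it (*HNRNPA3*, *HNRNPD*, *HNRNPH2*, *HNRNPH3*, *HNRNPM* and *HNRNPUL1*) and no SR gene of 11 did. By windows this was 6 of 43, or 14.0%. The log2 fold changes of the other 5 ran from -0.38 to 0.25. The neighbouring gene *GLA*, a lysosomal galactosidase transcribed from the opposite strand, had 318 and 275 TPM in siControl and 411 and 409.8 TPM in siCNOT4. Its log2 fold change was 0.47 (limma adjusted p = 0.0663). The palindrome and this neighbour were chosen after the values were seen.

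The other genes of the F/H group had smaller values. *HNRNPF* had 214 and 131 TPM in siControl and 262 and 276 TPM in siCNOT4, giving 0.68 on the log2 scale (SE 0.24, limma adjusted p = 0.0907). Its controls were far apart, and the value was 1.03 without the first control and 0.33 without the second. *HNRNPH1*, the closest relative of *HNRNPH2*, had 563 and 368 TPM against 497 and 526 TPM, so the groups overlapped (log2 fold change 0.17). *HNRNPH3* overlapped as well, with 294 and 229 TPM against 237 and 235 TPM (log2 fold change -0.14). *HNRNPH2* amounted to 0.177 and 0.220 of *HNRNPH1* in siControl and to 0.448 and 0.430 in siCNOT4. A ratio within a library does not depend on a single scale factor for that library, and here the groups did not overlap. Quantile normalization and removal of the length and GC trend can change such ratios. An exact permutation test of such a ratio with 2 libraries against 2 cannot go below p = 0.333, so none was run on this or the other ratios. The pairs were not among the comparisons fixed beforehand, and most of the ratios computed did not overlap. Among those that did were *SRSF10* to *SRSF12* (2.13 and 1.35 in siControl, 1.99 and 1.85 in siCNOT4) and *SRSF1* to *SRSF9* (0.623 and 0.466, 0.610 and 0.565). No share of non-overlap over other gene pairs was computed.

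Proteins of the A/B group bind UAG-like sites and can silence exons. *HNRNPA1* had 571 and 625 TPM in siControl and 419.9 and 419.7 TPM in siCNOT4, so both knockdown libraries lay below both controls. The difference on the log2 scale was -0.51 (SE 0.13), and its limma adjusted p of 0.0509 was just short of the threshold. After TMM scaling it was -1.03 (limma adjusted p = 0.0595), and leaving out 1 library at a time gave -0.57 to -0.44. The pseudogene entry *HNRNPA1P10*, which the rule leaves out, had 756 and 835 TPM against 559 and 557 TPM, or 1.32 to 1.34 times *HNRNPA1* in each library. The reads of these entries cannot be told apart, and the pseudogene's limma adjusted p was 0.0498. *HNRNPA1L2*, an intronless copy of *HNRNPA1*, had 11.7 and 10.98 TPM in siControl and 15.3 and 15.6 TPM in siCNOT4, a log2 fold change of 0.41 (limma adjusted p = 0.247) that after TMM scaling was -0.08.

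*HNRNPA2B1*, a nuclear RNA-binding protein that also sorts RNAs for transport, was the most abundant gene of either family. It had 927 and 793 TPM in siControl and 1049 and 1118 TPM in siCNOT4. This amounted to 0.34 on the log2 scale (SE 0.13, limma adjusted p = 0.112) and to -0.19 after TMM scaling. *HNRNPA2B1* stood at 1.62 and 1.27 times *HNRNPA1* in the controls and at 2.499 and 2.66 times after knockdown, again without overlap. *HNRNPA3* and *HNRNPA0*, 2 less abundant relatives, overlapped between the groups, with log2 fold changes of -0.04 and -0.10.

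*HNRNPC*, a uridine-tract binder that packages long nuclear transcripts, had 644 and 688 TPM in siControl and 626 and 585 TPM in siCNOT4. Its groups did not overlap, but the log2 fold change was small (-0.14, SE 0.13, limma adjusted p = 0.416). *HNRNPD*, also known as AUF1 and bound to AU-rich elements that control mRNA decay, had 332 and 358 TPM against 282 and 295 TPM (log2 fold change -0.26, limma adjusted p = 0.185). *HNRNPAB*, its relative, had 658 and 553 TPM against 523 and 575 TPM and overlapped (log2 fold change -0.14). *HNRNPK*, a KH-domain protein that binds cytosine-rich RNA and DNA, had 720.0 and 536 TPM in siControl and 760.4 and 746 TPM in siCNOT4. Its log2 fold change was 0.28 (limma adjusted p = 0.241), -0.25 after TMM scaling, 0.49 without the first control and 0.06 without the second.

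The U group links RNA to chromatin. *HNRNPU*, the scaffold attachment factor, had 329 and 254 TPM in siControl and 375 and 393 TPM in siCNOT4 (log2 fold change 0.41, SE 0.17, limma adjusted p = 0.117). *HNRNPUL1* went the other way, with 348 and 261 TPM against 229.7 and 233 TPM (log2 fold change -0.38, SE 0.18, limma adjusted p = 0.146). *HNRNPU* thus equalled 0.946 and 0.970 of *HNRNPUL1* in siControl and 1.63 and 1.69 in siCNOT4. After TMM scaling *HNRNPU* was at -0.12 and *HNRNPUL1* at -0.91, the latter with a limma adjusted p of 0.0380. Without siControl replicate 1 the values as deposited were 0.59 and -0.18, and without siControl replicate 2 they were 0.22 and -0.59. *HNRNPUL2* had a log2 fold change of 0.41, and its readthrough entry *HNRNPUL2-BSCL2* stood at 1.08 to 1.16 times *HNRNPUL2* in every library. *HNRNPU-AS1*, an older antisense symbol that RefSeq now files as a synonym of *HNRNPU*, had 44.9 and 39.6 TPM against 32.6 and 35.2 TPM (log2 fold change -0.31, limma adjusted p = 0.273). Whether the counting used strand is not given in the sources used here, so its reads and those of *HNRNPU* cannot be told apart by strand. Their ratio was not constant, with *HNRNPU* at 7.33 and 6.41 times *HNRNPU-AS1* in siControl and 11.5 and 11.2 times in siCNOT4. Of the remaining hnRNPs, *HNRNPL*, a CA-repeat binder, and *HNRNPM*, which binds GU-rich sites, had log2 fold changes of 0.16 and 0.25, which were -0.37 and -0.28 after TMM scaling. *HNRNPR* had 361 and 249.9 TPM in siControl and 294 and 293 TPM in siCNOT4, so its 2 controls lay on either side of both knockdown libraries.

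**Figure D1:**
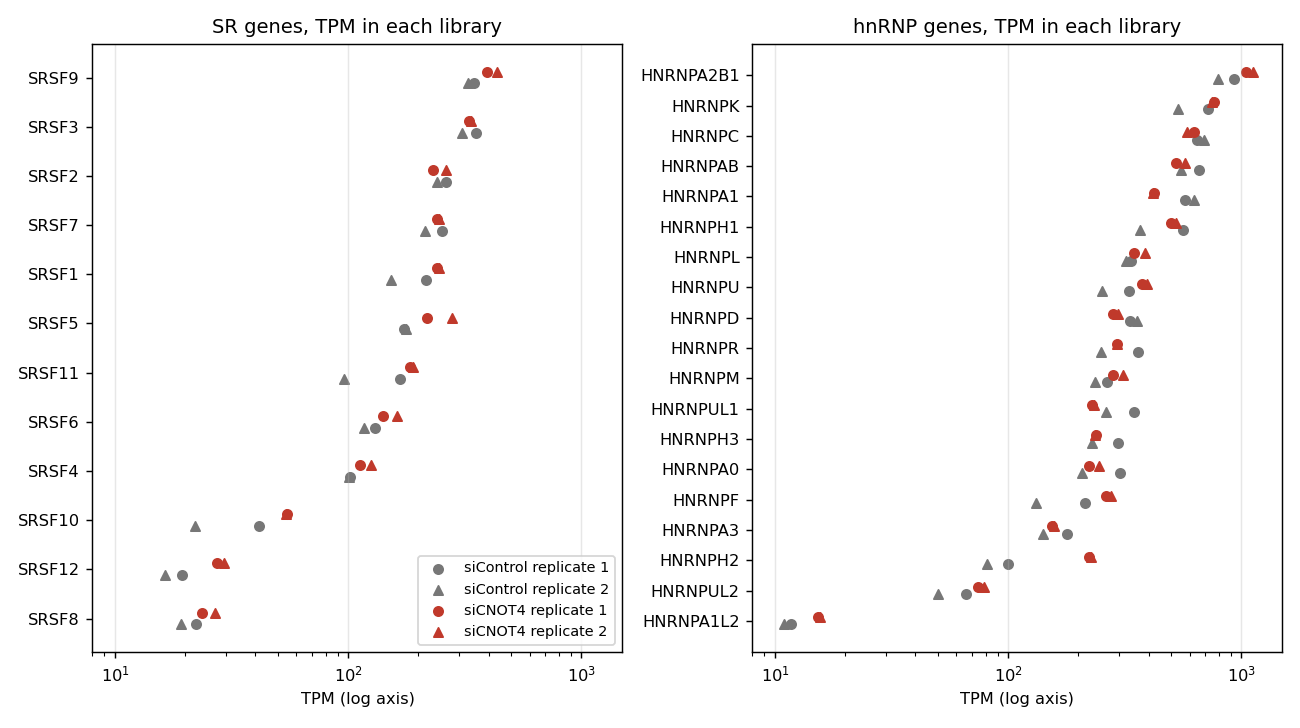
TPM of the 12 SR genes (left) and 19 tested hnRNP genes (right) in each library, on a log axis; grey points are siControl, red points siCNOT4, circles replicate 1 and triangles replicate 2. HNRNPH2 shows the widest gap between groups, and for many genes the grey circle and triangle are farther apart than the red ones.

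Among the most abundant SR genes, 3 of 4 had values near 0. *SRSF3*, the smallest SR protein and an adaptor for mRNA export, had 352 and 308 TPM in siControl and 330.3 and 335 TPM in siCNOT4 (log2 fold change 0.01, SE 0.14). *SRSF7*, its closest relative, had 251 and 213 TPM against 241 and 244 TPM (log2 fold change 0.07), and *SRSF2*, the speckle protein SC35, had 263 and 239 TPM against 231 and 262 TPM (log2 fold change -0.03). In these 3 genes the groups overlapped and the limma adjusted p values ran from 0.745 to 0.942. The ratio of *SRSF7* to *SRSF3* stayed between 0.692 and 0.729 in the 4 libraries. *SRSF9*, a relative of *SRSF1*, was the most abundant SR gene, with 347 and 328 TPM in siControl and 394 and 435 TPM in siCNOT4 (log2 fold change 0.30, SE 0.13, limma adjusted p = 0.141). After TMM scaling these 4 values lay between -0.55 and -0.23.

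At the other end stood *SRSF10*, *SRSF12* and *SRSF11*. *SRSF10* acts as a general splicing repressor once dephosphorylated, for instance after heat shock, and had 41.2 and 21.9 TPM in siControl and 54.6 and 54.2 TPM in siCNOT4. Its log2 fold change was 0.83 (SE 0.31, limma adjusted p = 0.102). Dropping the first control gave 1.27 and dropping the second 0.39, so its size depends on which control is kept. *SRSF12*, its relative, had 19.4 and 16.3 TPM against 27.4 and 29.3 TPM (log2 fold change 0.65, SE 0.24, limma adjusted p = 0.0966). Leaving out any 1 library left it between 0.53 and 0.76. *SRSF11* had 166 and 95.8 TPM in siControl and 185 and 190.2 TPM in siCNOT4 (log2 fold change 0.57, SE 0.27), and its value was 0.96 without the first control and 0.17 without the second. After TMM scaling the values of *SRSF10*, *SRSF12* and *SRSF11* were 0.32, 0.14 and 0.04, and no other SR gene was above 0 on that scale.

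The intermediate SR genes had small positive values. *SRSF1*, among the first SR proteins described and a regulator of splicing and translation, had a log2 fold change of 0.42, which was 0.67 without the first control and 0.17 without the second. *SRSF5*, *SRSF6* and *SRSF4*, which are close relatives, were at 0.49, 0.29 and 0.22, and *SRSF8*, a retrogene derived from *SRSF2*, at 0.28. *SRSF5* was high in siCNOT4 replicate 2, with 279.8 TPM against 218 in replicate 1, while its controls were at 173 and 177 TPM. Its limma adjusted p was 0.0862. All 5 of these genes had a negative value after TMM scaling, from -0.31 to -0.03, and lay above both controls in both siCNOT4 libraries as deposited.

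**Figure D2:**
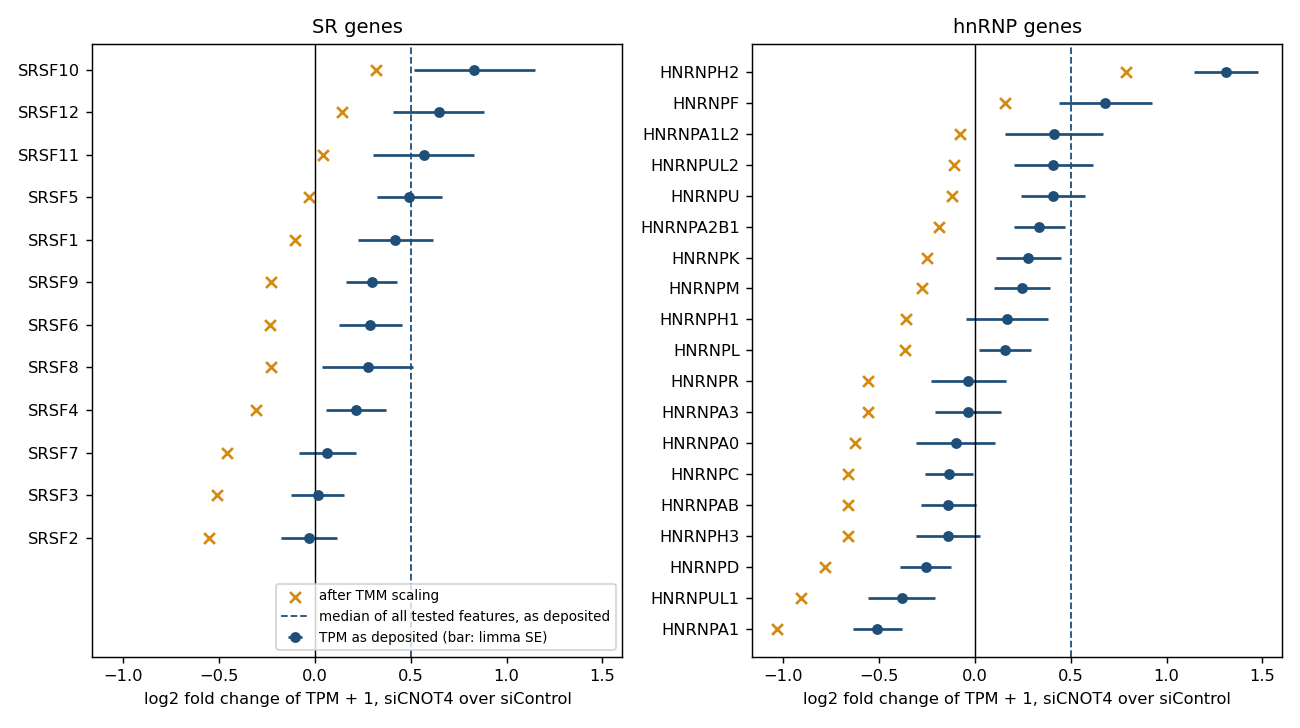
Log2 fold change of TPM + 1, siCNOT4 over siControl, for each SR gene (left) and tested hnRNP gene (right); points with bars are values as deposited with the limma SE, crosses are values after TMM scaling, and the dashed line is the median of all tested features (0.50). HNRNPH2 stands at 1.31 and HNRNPA1 at -0.51, and 3 SR genes and 2 hnRNP genes lie above the dashed line.

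Set side by side, the hnRNP family had the higher level and the wider spread. The hnRNP genes together held 7219 and 6094 TPM in siControl and 6874 and 7115 TPM in siCNOT4, whereas the SR genes held 2083 and 1789 TPM against 2197 and 2388 TPM. The hnRNP sum was therefore 3.47 and 3.41 times the SR sum in siControl and 3.13 and 2.98 times in siCNOT4. Both siCNOT4 ratios lay below both control ratios, and a single scale factor per library does not enter them. Without *HNRNPA1* the ratios were 3.19 and 3.06 against 2.94 and 2.80, so the order of the groups did not rest on that gene. The mean log2(TPM + 1) level of the SR genes minus that of the hnRNP genes was -1.17 in both siControl libraries and -1.01 and -0.94 in siCNOT4. The members share these libraries and are not replicates, so no test of the families was made.

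**Figure D3:**
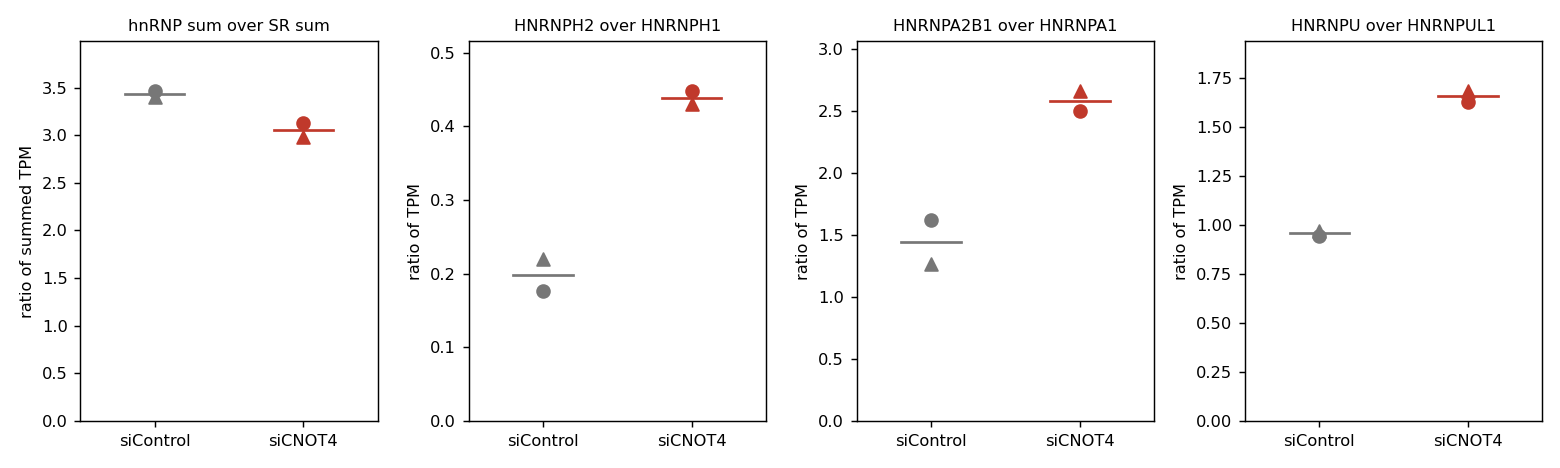
Ratios within each library (circles replicate 1, triangles replicate 2), with the group means as lines (2 libraries each): the summed TPM of hnRNP genes over that of SR genes, HNRNPH2 over HNRNPH1, HNRNPA2B1 over HNRNPA1, and HNRNPU over HNRNPUL1. The axes start at 0. The first ratio is lower in both siCNOT4 libraries (3.13 and 2.98 against 3.47 and 3.41) and the other 3 are higher. These 3 gene pairs are a selection, and most of the pairs computed did not overlap between the groups.

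By gene, the median log2 fold change was 0.29 for the SR genes and 0.16 for the tested hnRNP genes, beside 0.50 for all tested features. A positive value was found in 11 of 12 SR genes and in 10 of 19 hnRNP genes as deposited, but in 3 and 2 after TMM scaling. Values spanned -0.03 to 0.83 in the SR family and -0.51 to 1.31 in the hnRNP family, with SDs over genes of 0.26 and 0.42. Both siCNOT4 libraries exceeded both controls in 9 of 12 SR genes and 9 of 19 hnRNP genes, against 66.4% of all tested features. They lay below both controls in 0 SR genes and 4 hnRNP genes (*HNRNPA1*, *HNRNPUL1*, *HNRNPD* and *HNRNPC*), against 10.6% of all features. Above the median of all features stood 3 SR genes and 2 hnRNP genes, and after TMM scaling the family medians were -0.23 and -0.37. The difference between the medians, SR minus hnRNP, was 0.13 as deposited and 0.14 after TMM scaling. Without siControl replicate 2 the hnRNP median was -0.09 and the SR median 0.19, a difference of 0.28.

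Both families consist mostly of abundant transcripts, and the general shift between the groups was smaller at high levels. Over all features the median log2 fold change was 0.52 at a mean of 10 to 100 TPM (7814 features), 0.23 at 100 to 300 TPM (1289 features) and -0.01 at 300 to 1200 TPM (361 features). Of the 12 SR genes, 2 of 3, 4 of 7 and 2 of 2 lay above the median of their range, in the same order. For the hnRNP genes the counts were 0 of 2, 3 of 8 and 5 of 9. In these ranges the median log2 fold changes were 0.65, 0.29 and 0.16 for the SR genes and 0.41, -0.03 and 0.16 for the hnRNP genes. The family medians were nearly equal at 300 to 1200 TPM, but the SR value there rests on 2 unlike genes, *SRSF3* (0.01) and *SRSF9* (0.30). The part of level in the difference between the families was not tested.

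**Figure D4:**
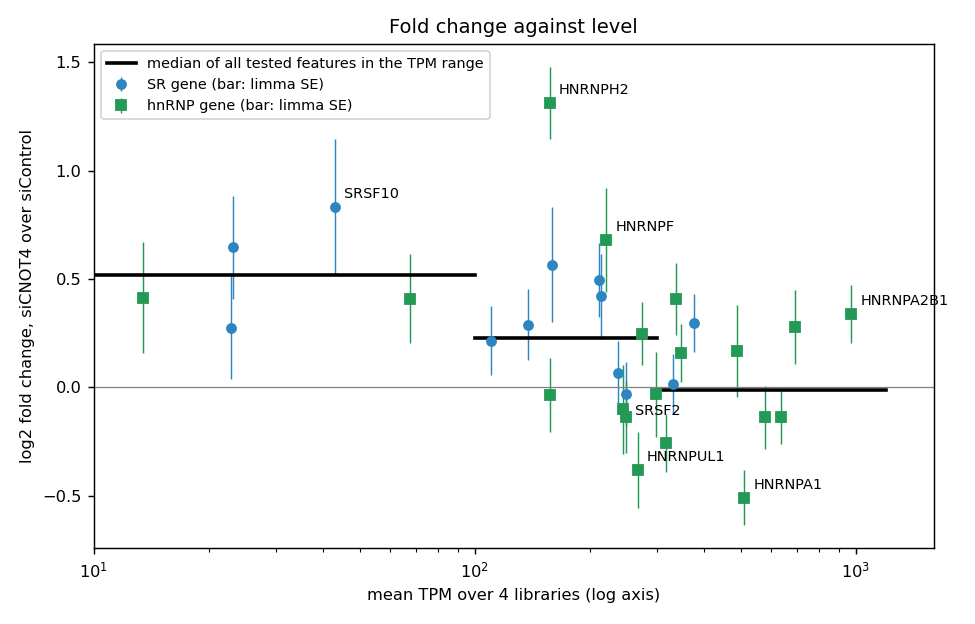
Log2 fold change as deposited against mean TPM (log axis) for each SR gene (circles) and tested hnRNP gene (squares), with limma SE; black lines are the medians of all tested features at 10 to 100, 100 to 300 and 300 to 1200 TPM. HNRNPH2 lies more than 1 log2 unit above the line for its range (0.23).

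How many members were called depended on the scaling and on the controls. After TMM scaling, where 9.37% of features were called, no SR gene and 2 hnRNP genes were (*HNRNPH2* higher, *HNRNPUL1* lower), as was the entry *HNRNPU-AS1*, also lower. Quantile normalization called 15.3% of features, no SR gene, *HNRNPH2* and, as lower, *HNRNPA1* and the entry *HNRNPU-AS1*. With the trend of each library in transcript length and GC content removed, and its mean shift with it, 25.4% of features were called. Then *SRSF2*, *SRSF3*, *SRSF7*, *HNRNPA0*, *HNRNPA1*, *HNRNPA3*, *HNRNPD*, *HNRNPH3*, *HNRNPR* and *HNRNPUL1* were called lower and *HNRNPH2* higher. The entry *HNRNPU-AS1* was called lower as well, with the length and GC content of *HNRNPU* assigned to it. With the replicate number as a block, 25.7% were called, among them *SRSF10* and *HNRNPF* as higher and *HNRNPA1* as lower, beside *HNRNPH2*. Without siControl replicate 1 the share was 79.6%, with 9 SR and 12 hnRNP genes, and without siControl replicate 2 it was 57.5%, with 4 and 12. In the latter 2 fits the lone control is assumed to vary like the siCNOT4 pair, and *HNRNPR* was called in opposite directions (0.23 and -0.30). *HNRNPH2* was called as higher in the main comparison and in all 11 alternatives.

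Some members share a short sequence at their starts. The heptamer GCCATTT, part of the site known for the factor YY1, lay within 30 bases of a RefSeq start in 8 of 30 member genes with a window. By windows, 20.9% of 43 member windows held it, against 1.10% of all 35116 windows and 1.45% of 14821 windows of tested features, with both strands searched. In the longer windows used for the palindrome above, the shares were 23.3%, 4.39% and 4.41%, so the contrast was smaller. The heptamer was chosen after the windows were read, several genes have more than 1 start, and a match is not a site. The windows of 5 of these genes are shown to let their position be compared, each 30 bases before and 30 from the start onward in GRCh38.p14, 5′ to 3′ on the gene's strand, with the heptamer or its reverse complement in capitals.
SRSF1 (chr17:58007217-58007276, minus): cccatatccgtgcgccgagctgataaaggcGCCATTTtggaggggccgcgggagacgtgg
SRSF3 (chr6:36594332-36594391, plus): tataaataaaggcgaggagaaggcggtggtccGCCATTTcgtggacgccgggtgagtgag
HNRNPR (chr1:23344255-23344314, minus): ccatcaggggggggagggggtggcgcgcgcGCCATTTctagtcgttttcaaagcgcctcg
HNRNPD (chr4:82373962-82374021, minus): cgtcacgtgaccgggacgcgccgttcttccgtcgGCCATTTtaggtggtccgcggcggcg
HNRNPM (chr19:8444945-8445004, plus): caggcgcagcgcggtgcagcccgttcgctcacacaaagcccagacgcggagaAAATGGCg
In *SRSF1* and *HNRNPR* the heptamer begins at the start itself. The other 3 genes with it were *HNRNPC*, *HNRNPH1* and *HNRNPUL1*. As deposited, the 8 genes had log2 fold changes from -0.38 (*HNRNPUL1*) to 0.42 (*SRSF1*), and neither *HNRNPH2* nor *SRSF10* held the heptamer there. *HNRNPA1* and *SRSF2* had no window and are named only.

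The wider splicing machinery was counted from 4 lists of genes. Of 12 SR kinases, phosphatase subunits and the SR importer *TNPO3*, 11 were tested and none was called by limma, while 6 had an unadjusted p under 0.05, all higher, beside 38.0% of all tested features (median log2 fold change 0.53, beside 0.50 over all features). Of 21 SR-related proteins none was called, 5 had an unadjusted p under 0.05, all higher and again beside 38.0% of all features, and the median was 0.33. The 23 hnRNPs under other symbols and further splicing regulators had a median of 0.29, and their calls are not given in full here. *HNRPDL* and *HNRPLL* in this list had log2 fold changes of 0.12 and 0.54 and were not called. The 28 core spliceosome genes had a median of 0.22, and 11 had an unadjusted limma p under 0.05, 9 higher and 2 lower, beside 42.0% of all features. By adjusted p 2 of the 28 were called higher and 0 lower, beside 11.3% and 1.30% of all features. These were *SF3B4*, a subunit of the U2 particle mutated in Nager syndrome, at 95.5 and 59.2 TPM against 170.4 and 185 TPM (log2 fold change 1.23, limma adjusted p = 0.0381), and *SNRPA1*, the U2 A-prime protein, at 169 and 194 TPM against 277 and 285 TPM (0.63, limma adjusted p = 0.0459). After TMM scaling *SF3B4* was at 0.71 and *SNRPA1* at 0.11, and neither was called. Both also lost the call with a pseudocount of 0.1, with no filter and with a mean of at least 5 TPM, and *SNRPA1* after quantile normalization. In the pseudocount and filter fits, higher calls over all features fell from 1608 of 14208 to 478 of 14208, 847 of 19734 and 109 of 11395. Losing a call there was therefore common and not particular to these genes. Leaving out 1 library at a time gave log2 fold changes of 0.89 to 1.57 for *SF3B4* and 0.53 to 0.73 for *SNRPA1*.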

How the data were processed

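RNA of 4 HEK293 libraries was described by 1 deposited table each of TPM, per the file headers, for 20457 symbols. The authors scaled TPM to 1000000 in each library. The submitters' processing notes name FastQC 0.11.2, STAR 2.5.3a, featureCounts and hg19, with no options. TPM keeps no read totals. Steps of the values up to 0.1 TPM gave relative depths, and GENCODE 29 transcript lengths gave approximate reads. The tested member with the fewest, *HNRNPA1L2*, had about 209 or more per library. Such reads carry no molecular identifiers, so their number limits counting error only.

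Groups came from sample titles. Features with a mean of at least 1 TPM (14208) were compared as log2(TPM + 1) with limma 3.58.1 in R 4.3.3 (lmFit, eBayes with a trend), 2 libraries against 2, with Benjamini-Hochberg adjustment over all tested features and a threshold of 0.05. The pseudocount understates changes of low genes. This step was run on simulated data with known changes in some features and independent noise. The simulation had no general shift between groups and no deviating control, so it does not cover those traits of these data. TMM factors were computed in R from the TPM of the tested features. The trend alternative subtracted natural splines with 4 degrees of freedom for length and GC content and was added after seeing the data. Its fit had an intercept, so it also removed the mean shift of each library.

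Values in every library were given for called members and, per family, the 4 most abundant and the 3 highest and 3 lowest log2 fold changes, with further ones added. From the other lists, called genes were named, except for 1 result that is not reported here. Members and lists were chosen with earlier results of these data known. Promoter sequences are from RefSeq (GRCh38.p14), matched by symbol for 30 of 32 genes. Protein sequences were not used here.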

Additional observations from a re-analysis of the deposited data

How the results depend on the processing

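The 33 tested members, counting the 2 hyphenated entries, kept their direction with a pseudocount of 0.1, with no filter on low values, with a mean of at least 5 TPM and without siCNOT4 replicate 2. With the changed pseudocount and filters they also kept their side of the threshold. Over all features these fits called 478 higher and 80 lower of 14208, 847 and 61 of 19734, and 109 and 38 of 11395. The main comparison called 1608 and 184 of 14208, so staying uncalled in these fits says little about a member. With TMM scaling 17 members reversed: *SRSF1* -0.10, *SRSF3* -0.51, *SRSF4* -0.31, *SRSF5* -0.030, *SRSF6* -0.23, *SRSF7* -0.46, *SRSF8* -0.23, *SRSF9* -0.23, *HNRNPL* -0.37, *HNRNPH1* -0.36, *HNRNPM* -0.28, *HNRNPK* -0.25, *HNRNPA2B1* -0.19, *HNRNPU* -0.12, *HNRNPUL2* -0.11, *HNRNPA1L2* -0.076 and *HNRNPUL2-BSCL2* -0.054. The SR median was -0.23, the hnRNP median -0.37, 2 hnRNP protein genes were called, and *CNOT4* was at -0.93. Quantile normalization reversed *SRSF3* (-0.024), *SRSF4* (-0.049), *SRSF7* (-0.047), *SRSF8* (-0.23) and *HNRNPA1L2* (-0.17). It gave an SR median of 0.092, an hnRNP median of -0.020, 2 called hnRNP protein genes and -1.15 for *CNOT4*. Removing the length and GC trend, chosen after seeing the data, reversed 16 members: *SRSF1* -0.20, *SRSF3* -0.74, *SRSF4* -0.13, *SRSF6* -0.46, *SRSF7* -0.48, *SRSF8* -0.37, *SRSF11* -0.18, *SRSF12* -0.10, *HNRNPL* -0.17, *HNRNPH1* -0.33, *HNRNPM* -0.10, *HNRNPK* -0.30, *HNRNPA2B1* -0.40, *HNRNPU* -0.40, *HNRNPUL2* -0.17 and *HNRNPUL2-BSCL2* -1.0e-04. The SR median was then -0.19, the hnRNP median -0.40, their difference 0.21, the calls 3 and 8, and *CNOT4* at -1.30. The trend fit also centred each library, and the median log2 fold change of all features was -7.9e-05 there, against 0.50 as deposited. That fit alone therefore does not separate length, GC content and the general shift. The members it reversed were also reversed by TMM scaling, which only rescales each library, except *SRSF11* (0.04 after TMM scaling) and *SRSF12* (0.14). The cause of these changes was not tested.

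Leaving out 1 library at a time gave 0 to 9 SR calls, 1 to 12 hnRNP calls, medians of 0.19 to 0.38 and -0.089 to 0.23, a difference of 0.13 to 0.28, and -0.70 to -0.32 for *CNOT4*. These call ranges followed the calls over all features, which were few without a siCNOT4 library and many without a siControl library. Such fits leave 1 library in a group, so these counts say little about the members. Members that reversed in these fits ranged over -0.12 to 0.060 (*SRSF2*), -0.081 to 0.11 (*SRSF3*), -0.052 to 0.18 (*SRSF7*), -0.32 to 0.041 (*HNRNPH3*), -0.37 to 0.17 (*HNRNPA0*), -0.20 to 0.13 (*HNRNPA3*), -0.30 to 0.23 (*HNRNPR*) and -0.14 to 0.47 (*HNRNPH1*). With the replicate number as a block, 1 SR and 3 hnRNP members were called. Deviations of same-numbered libraries correlated at 0.17 over features, but with 2 pairs and no label that ties them, they share only a number. Depth does not separate isoforms or near-identical copies, and 2 libraries per group limit every test.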
